A study of Mus musculus with 10 samples.

Results

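The genes described here are 10 members of the BCL2 family and of the p53 effector genes, which set survival against death in the early embryo: Bcl2l1, Mcl1, Bcl2l10, Bax, Bak1, Bid, Bcl2l11, Bbc3, Trp53 and Mdm2. Their probe sets were taken by gene symbol, wherever the array annotation gave one of these genes as the only symbol. This found 25 of the 38676 probe sets of the table, for 8 of the 10 genes, out of 16937 genes that the annotation names. Bax and Trp53 were not analysed here. The samples were 10 single mouse embryos at 3.0 days post coitum, collected from the oviduct and each amplified and hybridised to its own Affymetrix array. There were 5 wild-type embryos (WT1 to WT5) and 5 Klf5 knockout embryos (KO1 to KO5), and the labels name no strain, allele, litter or further treatment for either group. Nothing in the labels ties embryos to separate litters, so p-values speak only for the spread among the 10 embryos.

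The proteins of the BCL2 family meet at the outer mitochondrial membrane. Guardians such as BCL-XL (from Bcl2l1) and MCL1 hold back the effectors BAX and BAK, and BH3-only proteins such as BIM (from Bcl2l11), PUMA (from Bbc3) and BID bind the guardians or the effectors and tip the cell towards release of cytochrome c. The transcription factor p53 induces Bbc3, Bax and Mdm2 after damage, and MDM2 is the ubiquitin ligase that keeps p53 low. Mouse embryos without Mcl1 or without Mdm2 are lost around implantation, the latter only while p53 is present.

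Levels are given as log2(intensity + 16), differences as the KO mean minus the WT mean, and a level is compared only with the same probe set in other embryos. The scale understates changes of dim probe sets. A probe set with a mean level under 5.55, the 40th percentile, was not tested. The tested probe sets of the targeted gene went opposite ways. At 1451021_a_at, the brightest in WT embryos, the Klf5 intensity was at least 1096 and at most 4183 in the WT embryos and between 14.0 and 49.2 in the KO embryos, as the labels have it (exact two-sided permutation p = 0.00794, the smallest that 252 relabellings can give, n = 5). At 1451739_at, the brightest over all 10 embryos, the level was 8.83 to 9.64 among WT and 9.46 to 10.30 among KO embryos, so the groups overlapped, with a difference of 0.71 towards KO (limma adjusted p = 0.248, exact two-sided permutation p = 0.0317). Which part of Klf5 is deleted and where either probe set lies was not used here. All 10 preimplantation embryo markers were over the filter. Their summed intensity was between 25065 and 39764 in the WT and between 18078 and 23167 in the KO embryos, without overlap. The brightest genes weigh most in such a sum. Krt8 averaged a level of 13.62 in WT and 10.67 in KO embryos, Dppa3 13.30 and 13.49, and Tfap2c 12.43 and 11.06. Of the 10 markers 1 passed the adjusted threshold, Krt8, a keratin of the trophectoderm (-2.94, adjusted p = 0.00118). Tfap2c, a trophectoderm transcription factor, also did not overlap between genotypes (-1.37, adjusted p = 0.133). The other markers overlapped, did not pass and went both ways. Cdx2 (-0.28) and Pou5f1 (-0.29) were lower in KO embryos. Sox2 (1.06), Nanog (0.91), Gata3 (0.47), Gata6 (0.39), Zfp42 (0.28) and Dppa3 (0.19) were higher. The oviduct list had 2 of 5 over the filter, Krt5 (6.28 over all embryos) and Ovgp1 (5.58), with Pax8 (4.99), Muc16 (4.98) and Pgr (5.08) under it. Of the blood and immune markers 4 of 7 were over the filter, Cd74 (6.88), Lyz2 (6.43), Alas2 (6.12) and Cd52 (6.07). Ptprc (4.80), Cd68 (5.15) and Hba-a1 (5.02) were under it. Cd52 did not overlap between genotypes and was lower in KO embryos (-0.47, adjusted p = 0.129). Of the cumulus and granulosa markers 6 of 8 were over the filter, with Has2 (4.98) and Ptx3 (5.41) under it. The summed intensity of the cumulus and granulosa list was between 602 and 2090 in the WT and between 833 and 1558 in the KO embryos, that of the blood list 308 to 370 and 269 to 410, and that of the oviduct list 124 to 177 and 132 to 161. In the cumulus and granulosa list Nr5a2 was by far the brightest, with a mean level of 9.77, and weighed most in the sum. The other genes of that list had mean levels of 4.98 to 6.69. The part of any of these lists in the results below was not tested. In whole embryos, fewer cells of a type and less RNA per cell cannot be told apart.

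A technical split ran across both genotypes. The signal of bioB, a bacterial control sequence added to the hybridisation, was 8.36 to 8.95 in WT1 to WT3, KO1 and KO2 (the upper bioB arrays) and 6.16 to 6.69 in WT4, WT5 and KO3 to KO5 (the lower bioB arrays). In WT4 and WT5 the lys control also had the largest gap between its 3′ and middle probe sets (3.26 and 3.74, against 1.62 to 2.55 in the other embryos). Differences are therefore also given on the upper and lower bioB arrays apart, or without WT4 and WT5, where that moves them by over 1.5 times or turns their sign.

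The comparison of KO with WT embryos asks whether loss of Klf5 goes with a changed balance of these survival and death transcripts. Of the 25 probe sets, 16 were tested, for 7 genes, and 9 were under the filter, including both for Bak1. None of the 16 passed an adjusted p of 0.05, which 0.367% of all 23174 tested probe sets did (0.246% lower and 0.121% higher in KO embryos). At an unadjusted p under 0.05 there were 5 of 16, at Mcl1, Bcl2l1 and Bcl2l11, all lower in KO embryos, against 10.1% of all tested probe sets in either direction, 4.84% lower and 5.21% higher. Of these 5, 3 are Mcl1 probe sets that read nearly the same pattern over the embryos, so the 5 stand for 3 genes. In none of the 16 did the genotypes separate without overlap, which 2.33% of all tested probe sets did. The median difference was -0.16, with 9 probe sets below 0 and 7 above, against a median of -0.0026 over all tested probe sets. The standard errors ran from 0.13 to 0.39, with a median of 0.23 against 0.17 over all tested probe sets, so the intervals below are wide.

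**Figure D1:**
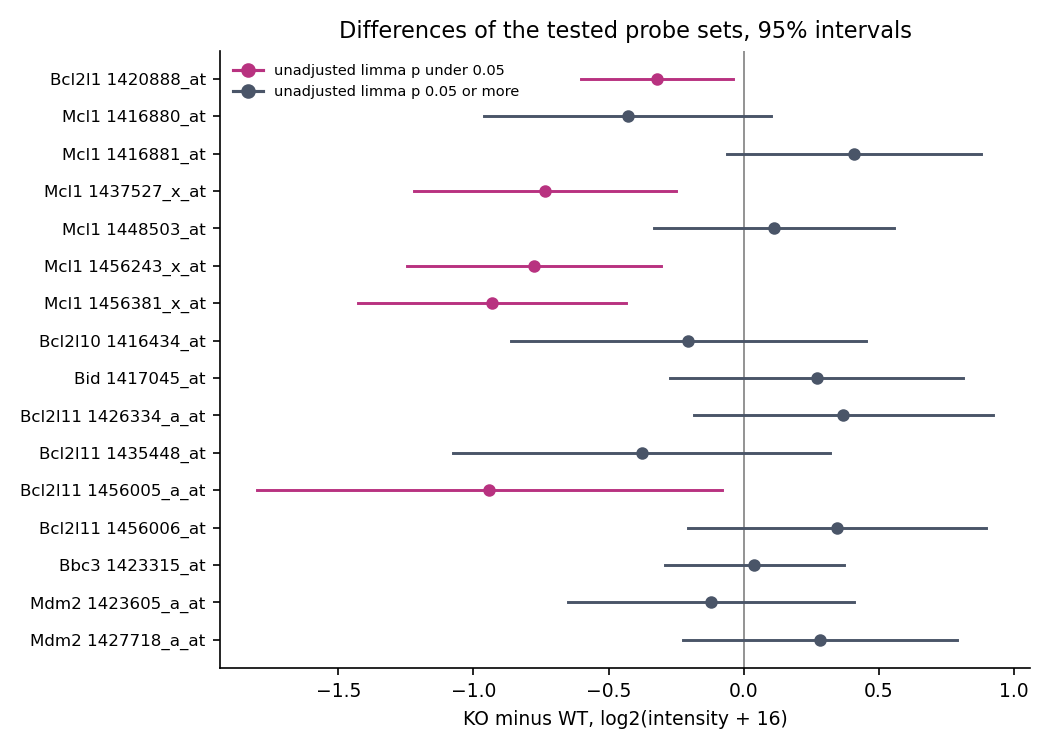
KO minus WT differences on the log2(intensity + 16) scale for the 16 tested probe sets, as points with 95% intervals from the limma fit. The 5 coloured intervals do not reach 0, all on the lower side, and none of the 16 passed adjustment over all tested probe sets.

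**Figure D2:**
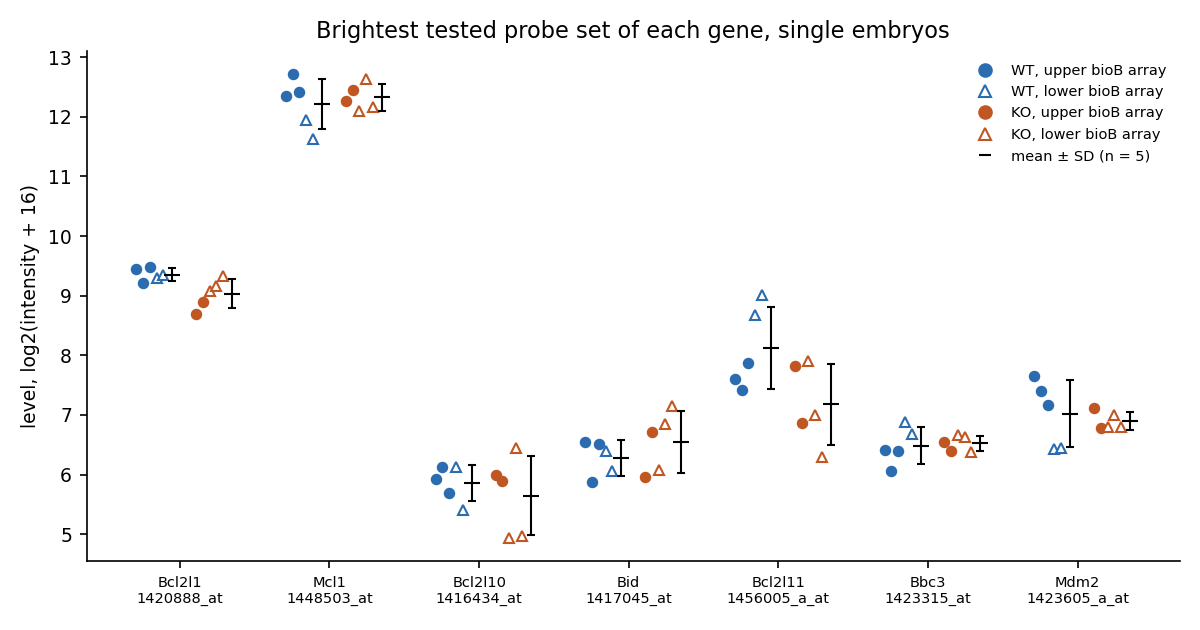
Level of the brightest tested probe set of each gene in every embryo, with the mean ± SD (n = 5) of each genotype as a bar. The genotypes overlap at all 7, and WT4 and WT5 (open blue triangles) lie at the edge of the WT embryos for Mcl1, Bcl2l11, Bbc3 and Mdm2.

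Among the guardians, Mcl1, which encodes a short-lived inhibitor of BAK, was read by 6 probe sets, all tested, and they did not move together. Its brightest probe set, 1448503_at, stood at 12.34, 12.72, 12.42, 11.95 and 11.64 in WT1 to WT5 and at 12.27, 12.45, 12.11, 12.64 and 12.16 in KO1 to KO5. The KO embryos lay inside the WT range, and WT4 and WT5 were the lowest of all 10. The difference was 0.11 (95% interval -0.33 to 0.56, adjusted p = 0.949, n = 5), and it turned to -0.17 without WT4 and WT5 and to -0.13 on the upper bioB arrays, against 0.51 on the lower.

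The other reading of Mcl1 came from 3 probe sets of the x_at kind, a name that Affymetrix gives where some probes also match other transcripts. The most different, 1456381_x_at, stood at 11.38, 10.95, 10.38, 10.76 and 11.52 in WT1 to WT5 and at 10.14, 10.48, 10.08, 9.74 and 9.91 in KO1 to KO5. All KO embryos but KO2 lay below the lowest WT embryo, WT3, and KO2 exceeded WT3 alone. The SD was 0.46 among the WT and 0.28 among the KO embryos (n = 5), and the means differed by -0.93 (95% interval -1.43 to -0.43), which is 1.91-fold lower on this scale. The limma p was 0.00181 before and 0.141 after adjustment over all tested probe sets. Without WT4 and WT5 the difference was -0.83 (adjusted p = 0.214), and it was -0.59 on the upper and -1.24 on the lower bioB arrays.

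The 2 further x_at probe sets gave the same picture. At 1456243_x_at the WT embryos read 11.64, 11.23, 10.75, 11.02 and 11.89 and the KO embryos 10.74, 10.76, 10.50, 10.32 and 10.33, a difference of -0.78 (95% interval -1.25 to -0.30, adjusted p = 0.192). At 1437527_x_at the WT embryos read 11.84, 11.52, 10.89, 11.32 and 12.16 and the KO embryos 11.06, 10.93, 10.83, 10.54 and 10.70, a difference of -0.74 (95% interval -1.22 to -0.25, adjusted p = 0.236). In both, WT1 and WT5 were the highest embryos and KO4 the lowest, and WT3 lay among the KO embryos. On the upper bioB arrays the differences were -0.45 and -0.42, and on the lower -1.07 and -1.05. The remaining probe sets, 1416880_at and 1416881_at, had opposite signs, at -0.43 (95% interval -0.96 to 0.10, adjusted p = 0.633) and 0.41 (-0.06 to 0.88, adjusted p = 0.593). The first was -0.50 on the upper and -0.25 on the lower bioB arrays, and the second 0.34 and 0.64, and 0.18 without WT4 and WT5.

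Over the 10 embryos, the 3 x_at probe sets followed each other at Pearson r of 0.970 to 0.990 and Spearman rho of 0.964 to 1.0, and at r of 0.927 to 0.969 without the 2 embryos farthest from the median. The permutation p was at most 3e-05 for each, and 0.00022 at most after adjustment over the 22 correlations computed between tested probe sets of one gene. With the brightest probe set 1448503_at they correlated at r of -0.446 to -0.358 (rho -0.248 to -0.188, permutation p 0.198 to 0.311, adjusted 0.391 to 0.402), and at 0.184 to 0.260 without WT4 and WT5. The probe set 1416880_at followed the x_at probe sets at r of 0.755 to 0.764 (rho 0.648 to 0.745, permutation p 0.0114 to 0.0124, adjusted 0.0453; rho adjusted 0.0962 to 0.133). It correlated with 1448503_at at 0.0668 (rho -0.0424, permutation p 0.853, adjusted 0.894). These values pool both genotypes. For deviations from the genotype means, r was 0.937 to 0.979 among the x_at probe sets and 0.676 to 0.683 between them and 1416880_at. With 1448503_at it was -0.469 to -0.359 for the x_at probe sets and 0.188 for 1416880_at. Set against each other within each embryo, the mean of the 3 x_at and the mean of the 3 plain probe sets differed by 0.75 to 2.06 in WT and by 0.05 to 0.62 in KO embryos. That contrast was chosen after the values were seen and has no test. It sets different probe sets against each other, so only its change between embryos can be read. The plain mean includes 1416880_at, which followed the x_at probe sets. The KO minus WT shift of the contrast was -0.85 over all embryos, -0.39 on the upper bioB arrays, -1.42 on the lower and -0.52 without WT4 and WT5. The share of the x_at signal that comes from transcripts other than Mcl1 was not tested.

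**Figure D3:**
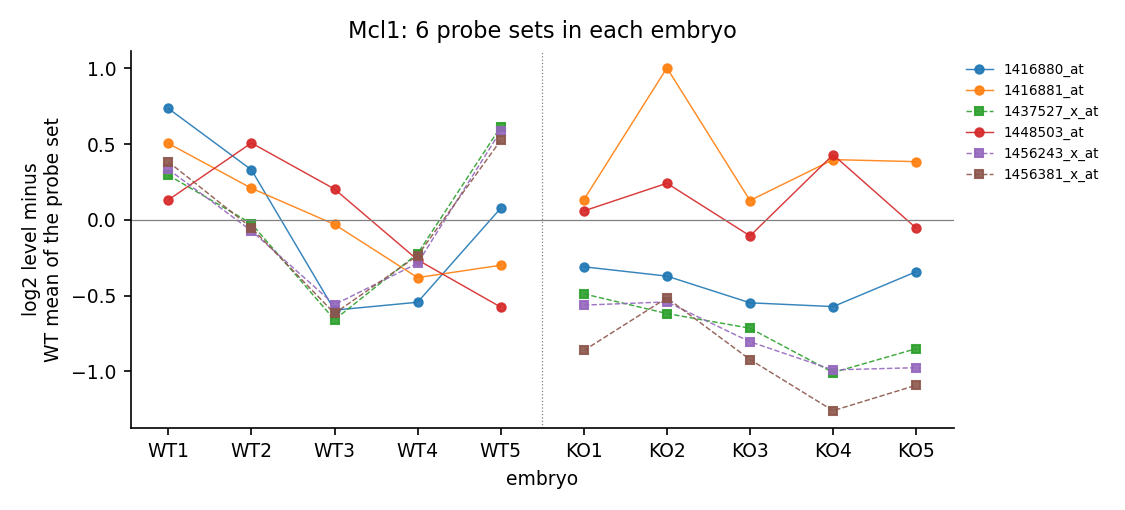
Level of each Mcl1 probe set in every embryo, minus the WT mean of that probe set (log2 units); squares with dashed lines are the x_at probe sets, and lines only guide the eye, since embryos have no order. The 3 x_at probe sets run together and are below the WT mean in all 5 KO embryos, as is 1416880_at, while 1448503_at and 1416881_at lie on both sides of it or above.

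Bcl2l1, whose main product BCL-XL holds BAX and BAK inactive, was read by 4 probe sets, of which 1 was tested. At 1420888_at the WT embryos stood at 9.44, 9.21, 9.48, 9.29 and 9.34 and the KO embryos at 8.69, 8.89, 9.08, 9.17 and 9.32. The WT embryos were tightly grouped, and KO1 to KO4 lay below all of them, while KO5 lay among them. The means were 9.35 ± 0.11 and 9.03 ± 0.25 (SD, n = 5), a difference of -0.32 (95% interval -0.60 to -0.04), or 1.25-fold lower, with a limma p of 0.0286 and an adjusted p of 0.410. It was -0.59 on the upper bioB arrays, which hold the lowest embryos KO1 and KO2, and -0.13 on the lower bioB arrays. The other 3 probe sets lay between 4.76 and 5.52 in every embryo, under the filter level.

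Bcl2l10, a family member made mainly in oocytes, was read at 1416434_at close to the filter level. The WT embryos stood at 5.92, 6.12, 5.69, 6.12 and 5.41 and the KO embryos at 5.99, 5.89, 4.93, 6.45 and 4.98. KO3 and KO5 were the lowest and KO4 the highest of all 10, so the KO embryos spread over more than the WT range (SD 0.67 against 0.30). The difference was -0.20 (95% interval -0.86 to 0.45, adjusted p = 0.928, n = 5), with 0.030 on the upper and -0.31 on the lower bioB arrays.

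Of the effectors, Bak1, which forms pores in the mitochondrial membrane, had both of its probe sets under the filter, at 4.72 to 5.36 over the 10 embryos. The differences were 0.09 at 1418991_at and 0.03 at 1425716_s_at, with no test. These levels give no order between the genotypes.

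Among the BH3-only activators, Bcl2l11, which encodes BIM, was read by 5 probe sets, of which 4 were tested. Its brightest, 1456005_a_at, stood at 7.61, 7.43, 7.87, 8.68 and 9.01 in WT1 to WT5 and at 7.82, 6.87, 7.91, 7.0 and 6.29 in KO1 to KO5. WT4 and WT5, the arrays with the steepest lys control, were the highest of all 10, KO2, KO4 and KO5 lay below all WT embryos, and KO1 and KO3 stood close to WT3. The means were 8.12 ± 0.69 and 7.18 ± 0.68 (SD, n = 5), a difference of -0.94 (95% interval -1.80 to -0.08), or 1.92-fold lower, with a limma p of 0.0349 and an adjusted p of 0.435. WT4 and WT5 averaged 1.21 above WT1 to WT3. Without them the difference was -0.46 (adjusted p = 0.685), and it was -0.29 on the upper and -1.78 on the lower bioB arrays.

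Of the other 3 tested Bcl2l11 probe sets, 1 lay on the same side of 0 and 2 on the other. The differences were 0.37 at 1426334_a_at, 0.35 at 1456006_at and -0.38 at 1435448_at, with adjusted p of 0.741 to 0.815 and intervals that together ran from -1.08 to 0.92. On the upper bioB arrays they were 0.52, 0.19 and -0.16 in that order, and on the lower 0.36, 0.56 and -0.49. At 1426334_a_at, KO3 (6.75) stood apart from the other KO embryos (7.80 to 8.09). That probe set ran against 1456005_a_at over the 10 embryos (r = -0.652, rho = -0.697, permutation p = 0.0412 and 0.0307, adjusted 0.130 and 0.133; r = -0.532 without the 2 farthest embryos). These values pool both genotypes, and r of the deviations from the genotype means was -0.544. The remaining one, 1435449_at, was under the filter (4.87 to 5.98).

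Bid, a BH3-only protein that is activated by cleavage, was tested at 1417045_at. The WT embryos stood at 6.55, 5.87, 6.51, 6.39 and 6.05 and the KO embryos at 5.95, 6.71, 6.07, 6.85 and 7.15. KO2, KO4 and KO5 lay above all WT embryos and KO1 and KO3 among them. The difference was 0.27 (95% interval -0.27 to 0.81, adjusted p = 0.843, n = 5), and it was 0.02 on the upper and 0.47 on the lower bioB arrays. Of its probe sets under the filter, 1448560_at stayed between 4.90 and 5.04, and 1447873_x_at between 4.75 and 5.30 in all embryos but WT4 (6.62).

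Bbc3, which encodes PUMA and is the family's classic p53 target, was read at 1423315_at alone. The WT embryos stood at 6.40, 6.06, 6.40, 6.88 and 6.68 and the KO embryos at 6.55, 6.40, 6.66, 6.62 and 6.37. The KO embryos were close together inside the WT range, whose upper end was again WT4 and WT5. The difference was 0.04 (95% interval -0.29 to 0.37, adjusted p = 0.984, n = 5), the narrowest interval after that of Bcl2l1. It was 0.23 without WT4 and WT5, 0.19 on the upper and -0.22 on the lower bioB arrays.

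Mdm2, which is induced by p53 and targets it for destruction, was read by 3 probe sets, of which 2 were tested. At the brighter, 1423605_a_at, the WT embryos stood at 7.65, 7.41, 7.17, 6.43 and 6.44 and the KO embryos at 7.12, 6.79, 6.79, 7.01 and 6.79. WT1 to WT3 lay above all KO embryos and WT4 and WT5 below all of them. The difference was therefore -0.12 (95% interval -0.65 to 0.41, adjusted p = 0.957, n = 5) over all embryos. Without WT4 and WT5 it was -0.51, with a limma p of 0.00682 and an adjusted p of 0.201. On the upper bioB arrays it was -0.45 and on the lower 0.42. The sign of the genotype difference of this probe set thus depended on which WT embryos were compared.

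The dimmer Mdm2 probe set, 1427718_a_at, stood at 5.84 to 5.96 in all WT embryos but WT4 (6.54) and at 5.82 to 6.84 in KO embryos, with KO2 and KO5 the highest. Its difference was 0.28 (95% interval -0.22 to 0.79, adjusted p = 0.804), at 0.49 on the upper and 0.040 on the lower bioB arrays. The 2 probe sets correlated at r = -0.414 over the embryos (rho -0.273, permutation p 0.231 and 0.446, adjusted 0.391 and 0.667; r = -0.298 without the 2 farthest embryos). For deviations from the genotype means r was -0.386. The third, 1457929_at, was under the filter (5.06 to 5.37).

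**Figure D4:**
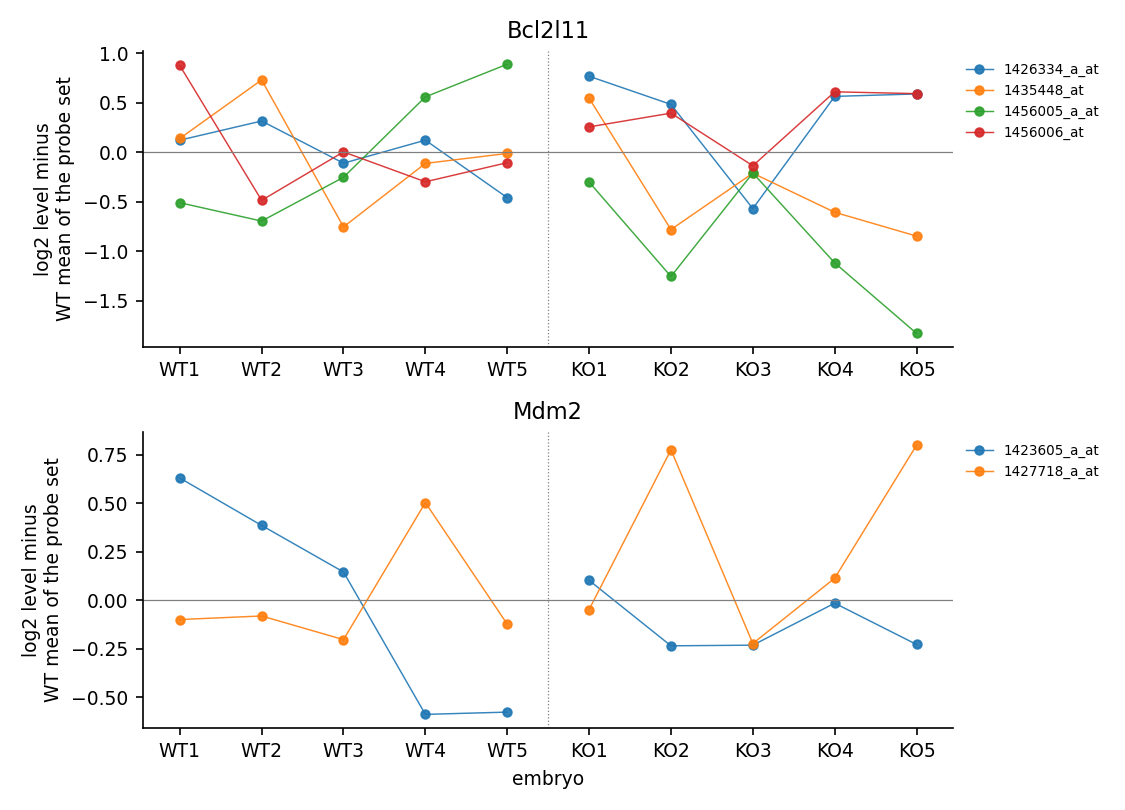
Level of each tested Bcl2l11 and Mdm2 probe set in every embryo, minus its WT mean (log2 units); lines only guide the eye. WT4 and WT5 are the highest embryos for Bcl2l11 1456005_a_at and the lowest for Mdm2 1423605_a_at, and the probe sets of each gene do not run together.

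Promoter sequence is shown for the 3 genes with a probe set at an unadjusted p under 0.05 and for Mdm2, whose sign depended on the embryos, because KLF5 and related factors bind GC-rich boxes. Each is the 250 bases upstream of the gene's outermost annotated start (RefSeq, GRCm38.p6), written 5′ to 3′ on the gene's strand, with matches to GGGCGG or GGGNGNGG on either strand in capitals. The windows are chr3:95658471-95658720 (+) for Mcl1, chr2:152831729-152831978 (-) for Bcl2l1, chr2:128125788-128126037 (+) for Bcl2l11 and chr10:117710759-117711008 (-) for Mdm2.
Mcl1: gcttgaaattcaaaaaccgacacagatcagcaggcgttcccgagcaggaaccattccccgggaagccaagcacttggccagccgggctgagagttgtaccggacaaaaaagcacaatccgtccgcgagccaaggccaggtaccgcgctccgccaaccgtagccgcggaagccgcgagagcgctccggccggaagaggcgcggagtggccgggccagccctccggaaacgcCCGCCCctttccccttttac
Bcl2l1: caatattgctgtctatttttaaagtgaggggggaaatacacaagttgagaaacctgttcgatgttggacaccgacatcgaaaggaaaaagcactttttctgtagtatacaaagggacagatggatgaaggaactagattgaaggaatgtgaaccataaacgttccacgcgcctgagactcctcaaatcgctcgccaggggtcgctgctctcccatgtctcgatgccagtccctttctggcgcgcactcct
Bcl2l11: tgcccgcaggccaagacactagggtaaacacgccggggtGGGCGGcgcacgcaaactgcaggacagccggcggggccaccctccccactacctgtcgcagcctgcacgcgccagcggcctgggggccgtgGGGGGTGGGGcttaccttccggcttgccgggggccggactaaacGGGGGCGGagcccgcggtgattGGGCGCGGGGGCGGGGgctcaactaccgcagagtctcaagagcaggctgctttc
Mdm2: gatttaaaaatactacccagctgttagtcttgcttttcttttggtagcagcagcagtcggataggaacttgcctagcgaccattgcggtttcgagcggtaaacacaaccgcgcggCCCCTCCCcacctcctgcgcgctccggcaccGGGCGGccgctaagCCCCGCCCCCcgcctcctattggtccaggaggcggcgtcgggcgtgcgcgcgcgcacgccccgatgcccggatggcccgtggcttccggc

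The Bcl2l11 window held 3 matches to GGGCGG and 6 to GGGNGNGG, the Mdm2 window 2 and 3, the Mcl1 window 1 and 0, and the Bcl2l1 window 0 of either. At annotated starts further downstream, the windows held 0 and 2 at the next Bcl2l1 start and 0 of either at its last. The next Bcl2l11 start had 2 and 1. Over all annotated starts, 12 windows of 7 of these genes were found, and 8 of the 12 held each motif. Windows are not genes: all 3 windows of Bbc3 held both motifs, and those at its starts 2 and 3 overlap. Of all 32851 promoter windows of that length, 32.7% held GGGCGG and 45.9% GGGNGNGG. The motifs overlap each other, and 17 of the 24 GGGCGG matches in the 12 windows lay in part on a GGGNGNGG match. A match is a description of the letters, not a binding site, and no binding was measured here.

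The other genes of the pathway were read from the same fit as 3 lists. Of 18 further BCL2 family genes, 13 were in the table and tested, at 23 probe sets, and none passed an adjusted p of 0.05 in either direction. At an unadjusted p under 0.05 there was 1 of 23 (4.35%, against 10.1% of all tested probe sets). The 3 genes of smallest p were Bcl2l15, at 1.15 (adjusted p = 0.345), Bcl2l14, at 0.37 (0.586), and Bcl2l13, at -0.34 (0.602). Bcl2l14 stood at 0.18 on the upper and 0.69 on the lower bioB arrays and at 0.14 without WT4 and WT5, and Bcl2l13 at -0.36 and -0.21. The median difference of the list was -0.05.

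Of 41 regulators and targets of p53, 40 were in the table and 36 tested, at 67 probe sets. None passed, and 7 of 67 (10.4%) were at an unadjusted p under 0.05, 2 higher and 5 lower in KO embryos. Of all tested probe sets 10.1% were, 5.21% higher and 4.84% lower. The closest was Trp53i11, named for its induction by p53. At 1436919_at it stood at 9.21, 9.58, 8.50, 8.95 and 9.73 in WT1 to WT5 and at 8.21, 7.54, 8.01, 8.17 and 7.72 in KO1 to KO5. All KO embryos lay below all WT embryos, and the difference was -1.26 (adjusted p = 0.0607, n = 5), or 2.40-fold lower. It was -1.22 on the upper and -1.37 on the lower bioB arrays and -1.16 without WT4 and WT5. Usp7, a deubiquitinase that acts on both MDM2 and p53, differed by -0.76 at 1454949_at (adjusted p = 0.192) and by -0.54 at 1419920_s_at (0.279), while 5 further Usp7 probe sets differed by -0.17 to 0.15. Trp53i13 differed by 0.98 (0.285). The median of the list was -0.0022.

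Of 28 genes of the apoptosome, the caspases and their inhibitors, 26 were in the table and 24 tested, at 43 probe sets, and none passed. At an unadjusted p under 0.05 there were 5 of 43 (11.6%), 1 higher and 4 lower. Of all tested probe sets 10.1% were, 5.21% higher and 4.84% lower. The lower ones include 1437947_x_at and 1436992_x_at of the same gene, Vdac1. Xiap, the main direct caspase inhibitor, differed by -0.51 at 1450232_at (adjusted p = 0.273) and by 0.26 at its other tested probe set. Dffb, the nuclease that cuts DNA in dying cells, differed by -0.96 (0.282), and Birc2, a ubiquitin ligase of the inhibitor family, by 0.33 (0.303), with all KO embryos above all WT embryos. These differences moved with the arrays: Xiap 1450232_at was -0.13 on the upper and -0.91 on the lower bioB arrays, Dffb -1.36 and -0.35, and Birc2 0.097 and 0.55. Without WT4 and WT5, Xiap 1450232_at was -0.33 and Dffb -1.36. The median was -0.05.

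**Figure D5:**
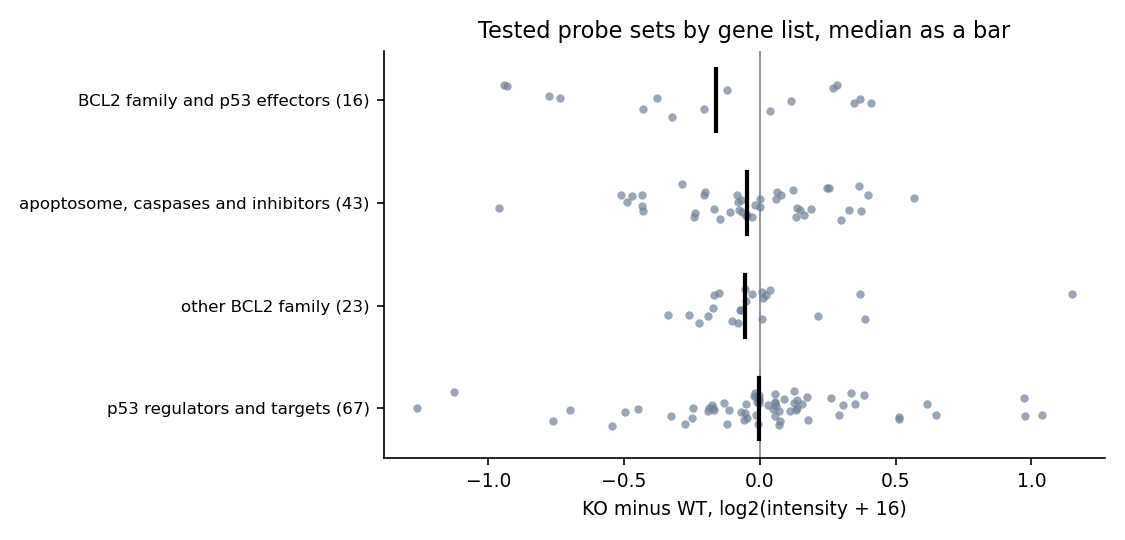
KO minus WT differences (log2 units) of the tested probe sets of the BCL2 family and p53 effector genes and of the 3 further lists, a point per probe set, with the median as a bar (vertical position within a list has no meaning). The medians lie at -0.16, -0.05, -0.05 and -0.0022, and no point passed the adjusted threshold.

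For each gene's brightest tested probe set, the most alike probe set of another gene over the 10 embryos was sought among 19861 to 19866 named ones, so each value is the highest of that many and has no test. For Bid it was Nfatc2ip (Pearson r = 0.971), for Mcl1 Ccdc117 (0.966), for Mdm2 Nxt1 (0.965) and for Bbc3 Tnpo2 (0.959). For Bcl2l11 it was Slc16a9 (0.936), for Bcl2l10 9030607J07Rik (0.918) and for Bcl2l1 Man2a2 (0.910). The Spearman rho of these pairs lay between 0.891 and 0.976, and r without the 2 embryos farthest from the median between 0.757 (Bcl2l1) and 0.972 (Bid).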

How the data were processed

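The deposited table gives an intensity per probe set for each array, on a linear scale to judge from its values. Per the labels' protocols, single-embryo cDNA was amplified and biotin-labelled, and per the series' description GeneSpring GX was used. How background, probe summary and normalization were handled is not given in the sources used here. Array medians were 40.0 to 43.6.

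Values were taken as log2(intensity + 16), without the 53 control probe sets and those under the 40th percentile of mean level, so that 23174 were tested. KO and WT embryos were set against each other by limma 3.58.1 (R 4.3.3, lmFit, eBayes) with 2-sided p-values, genotype as the only term, Benjamini-Hochberg adjustment over all tested probe sets and a threshold of 0.05. The fit was tested on simulated data with independent normal noise. These had no technical split of the arrays, so they do not speak for the split found here. Correlations used 100000 permutations. Genes were named from the platform annotation where it gives 1 symbol (30854 probe sets). Named probe sets are each gene's brightest tested one and those at an unadjusted p under 0.05, and per list the genes that passed, otherwise the 3 of smallest p. Alternatives were quantile normalization, median centring, other filters and pseudocounts, array weights, a robust prior with an intensity trend, a block for embryo number or bioB set, each bioB set alone, and leaving out embryos. The genes, lists and alternatives were chosen with earlier results of these data known. Positions of probe sets on their transcripts were not used here.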

Additional observations from a re-analysis of the deposited data

Results flagged for a closer look

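Over the 25 probe sets, 50 groups of 5 embryos were examined for an embryo far from the others of its genotype, by the gap to its neighbour over the range of the group, and 5 were found. Chance alone gives about 1 in 20 such groups. WT4 was high at 3 probe sets: Bid 1447873_x_at (6.62, the other WT embryos 4.75 to 5.02), Mdm2 1427718_a_at (6.54, others 5.84 to 5.96) and Bcl2l1 1426050_at (5.07, others 4.76 to 4.82). At Bcl2l11, KO3 was low at 1426334_a_at (6.75, the other KO embryos 7.80 to 8.09) and KO1 high at 1435449_at (5.98, others 4.87 to 5.12). Those of Bid, Bcl2l1 and Bcl2l11 1435449_at were under the level filter over all embryos.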

How the results depend on the processing

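None of the member probe sets passed an adjusted p of 0.05 under any of the 13 alternatives or with any 1 embryo left out. The lowest adjusted p of any was 0.0765 (Mcl1 1456381_x_at). At an unadjusted p under 0.05 there were 3 to 6 member probe sets without 1 embryo and 2 to 6 under the alternatives, against 5 in the main fit. Of all 23174 tested probe sets, 2329 (10.1%) were under it in the main fit. That share also moved with the setting, so the member counts cannot be read by themselves. Of the 16 differences, 12 kept their direction throughout. The others lay at -0.20 to 0.11 over all embryos. Bbc3 turned to -0.018 with the bioB block and -0.22 on the lower bioB arrays, and Bcl2l10 to 0.030 on the upper. Mcl1 1448503_at turned to -0.13 on the upper bioB arrays and -0.17 without WT4 and WT5, against 0.51 on the lower. Mdm2 1423605_a_at turned to 0.42 on the lower bioB arrays and was -0.51 without WT4 and WT5. Leaving out 1 embryo gave -0.067 to 0.14 for Bbc3, -0.031 to 0.24 for Mcl1 1448503_at and -0.27 to 0.037 for Mdm2 1423605_a_at. Over all tested probe sets, 85 passed (57 lower, 28 higher), 45 to 63 without 1 embryo, 1 on the upper and 0 on the lower bioB arrays alone (2105 and 3512 at an unadjusted p under 0.05), each with 5 arrays. With the embryo number as a replicate block 24 passed. The deviations of same-numbered embryos from their genotype means correlated at -0.03 to 0.18. Embryos of different numbers were not set beside them, so whether the numbers pair embryos was not tested. Of the other pathway genes 0 passed, but 1, Trp53i11, did with a filter at the 60th percentile (adjusted p = 0.0433), where fewer probe sets were tested, and without WT3 (-1.44, adjusted p = 0.0336), so 0 to 1 without 1 embryo. The Klf5 difference of -6.04 at 1451021_a_at was -5.05 (adjusted p = 0.0951) on the lower bioB arrays, and its other tested probe set, 1451739_at (0.71), was not recomputed. The number of arrays limits the precision, and dim probe sets near the filter have no reliable size of difference.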

Other observations

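Well-known p53 targets outside the 10 genes were read as well, chosen after their values were seen. Cdkn1a, the cell cycle inhibitor p21, differed by 0.65 and 0.34 at its tested probe sets (adjusted p = 0.574 and 0.922, n = 5). Ccng1, a cyclin induced by p53, differed by 1.04, 0.51 and -0.0024 at its tested probe sets (adjusted p = 0.530, 0.850 and 1.0). Perp, a membrane protein of desmosomes that p53 also induces, differed by -1.13 (adjusted p = 0.501). On the upper bioB arrays its WT1 to WT3 stood at 8.79, 9.13 and 8.85, above KO1 and KO2 at 6.30 and 6.28. On the lower bioB arrays WT4 and WT5 stood at 6.69 and 7.98, and KO3 to KO5 at 7.59, 8.13 and 7.51. Pmaip1, the BH3-only protein NOXA, had a WT mean of 6.09 ± 0.91 and a KO mean of 6.10 ± 0.87 (SD, n = 5). None of them passed, and their differences lay on both sides of 0. Differences of these genes were not computed on the upper and lower bioB arrays apart.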
